A study of Mus musculus with 10 samples.

Results

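The 10 genes described here make serine and asparagine, run the mitochondrial one-carbon pathway, or act in the stress response led by the transcription factor ATF4. They were taken by exact name from a table of 35976 genes, and all 10 were found: Phgdh, Psat1, Psph, Shmt2, Mthfd2, Asns, Atf4, Ddit3, Atf3 and Trib3. All 10 passed the filter on low counts in each fit. The series holds 10 RNA-seq libraries from mouse embryos at the morula, the stage at which the cells of the embryo compact, all from the strain combination BDF1 x PWK. Of these, 6 libraries each came from 1 female embryo: 3 of wild-type genotype (replicates 1 to 3) and 3 Jarid2 knockouts (replicates 1, 3 and 4). The other 4 were pools of about 20 embryos, 2 of control genotype and 2 of Jarid2 knockouts, whose sex the labels do not give. Jarid2 is a cofactor of the Polycomb complex PRC2, and the comparison asked throughout is knockout against control within each set. The labels do not give the deleted exons, whether the deletion was maternal or zygotic, the age of the embryos in hours, or what genotype the control pools carried.

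Serine is made from a glycolytic intermediate in 3 steps, by PHGDH, PSAT1 and PSPH in turn. SHMT2 and MTHFD2 then pass the 1-carbon group of serine to folate in mitochondria, and ASNS makes asparagine from aspartate. When amino acids are short or proteins misfold in the endoplasmic reticulum, kinases phosphorylate the initiation factor eIF2, general translation falls, and Atf4 messenger RNA is translated more. ATF4 protein then raises transcription of Asns, the serine genes, Ddit3 (CHOP), Atf3, Trib3 and amino acid transporter genes. Because ATF4 is controlled largely at translation, its messenger RNA level is not a direct readout of its activity.

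ATF4 binds, with C/EBP proteins, a composite element whose core can be written TGATGNAA. To show where these letters occur, the promoters of the genes that passed the test and of Atf3 are printed for the 120 bases before the RefSeq start (build GRCm38.p6, minus strand of each chromosome, read 5′ to 3′ along the gene), with matches to the core in capitals. They lie at chr6:7693210-7693329 (Asns), chr19:15925060-15925179 (Psat1) and chr1:191183334-191183453 (Atf3).
Asns: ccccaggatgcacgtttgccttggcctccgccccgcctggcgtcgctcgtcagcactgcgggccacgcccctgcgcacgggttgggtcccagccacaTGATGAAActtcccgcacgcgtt
Psat1: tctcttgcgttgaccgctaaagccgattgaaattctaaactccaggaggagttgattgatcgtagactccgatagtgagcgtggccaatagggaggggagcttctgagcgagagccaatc
Atf3: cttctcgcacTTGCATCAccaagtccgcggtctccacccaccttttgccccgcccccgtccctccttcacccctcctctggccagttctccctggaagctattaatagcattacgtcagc
Promoter windows of 300 bases (250 before the start, 50 after) were found for all 10 genes, 11 windows in all. The core TGATGNAA, on either strand, occurred in those of 3 genes: Asns and Atf3 as printed, and Trib3 just after the start. Of 27025 genes with a window, 4.51% held it. The cyclic AMP response element TGACGTCA (2.03% of genes) and the endoplasmic reticulum stress element, CCAAT and CCACG spaced by 9 bases, on either strand (0.137% of genes) had no match in the 11 windows. Neither of the Psat1 windows held any of the 3 motifs. A match is a description of the letters, and a window without one says nothing of the factor.

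Libraries of single embryos held 14830332 to 18696312 counts in total, and those of pools 41003216 to 49861963. Jarid2 was lower in every knockout library (61.3 to 318.7 CPM in single embryos and 157.9 to 180.6 in pools) than in every control of its set (580.3 to 775.6 and 442.5 to 496.3 CPM), so transcript was still counted in knockouts. CPM is a gene's count over the total of its library, times 1000000. All 12 morula markers (among them Nanog, Gata3 and Krt18) had at least 1 CPM in every library, but their levels differed. They summed to 3199 to 3507 CPM in wild-type single embryos, 2207 to 3583 in knockout ones and 1624 to 2305 in pools. Cdh1 was higher in every wild-type single embryo (404.8 to 812.2 CPM) than in every knockout one (108.9 to 247.8), and Klf5 was lower (212.4 to 295.9 against 372.2 to 426.3). Among all genes tested, 15.3% separated the single embryos in the direction of Cdh1 and 12.6% in that of Klf5. Of 11 cumulus and granulosa cell markers, the steroid gene Star alone exceeded 1 CPM, and their sum was 1.07 to 9.91 CPM, the highest in a wild-type single embryo; Has2, Ptx3, Inhba, Fshr and Lhcgr had 0 counts throughout. Oocyte markers summed to 36.7 to 166.1 CPM, most of it Zp3, fibroblast markers to 9.27 to 141.7 CPM, most of it Pdgfra, and blood markers to 0.135 to 1.65 CPM. The part of these other signals in the results below was not tested. Many genes set the wild types among the single embryos apart from every other library: of 13828 genes compared, 7.61% were lower in all 3 of them than in every one of the other 7 libraries, and 11.5% were higher. In whole embryos, fewer cells of a kind and less RNA per cell cannot be told apart.

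In single embryos Asns and Psat1 passed the test, with log2 changes of 1.71 (SE 0.36) and 1.19 (SE 0.23). Both were higher in every knockout than in every wild type, as were 12.6% of all genes tested. The other 8 genes did not pass. Of the 10 genes, 2 rose and 0 fell, where 4.37% of the 13830 genes tested passed, 1.16% higher and 3.21% lower (edgeR, Benjamini-Hochberg adjustment over all genes at 5%). Their median log2 change was 0.81, against -0.03 over all genes. In the pools 0 of the 10 passed, and 0% of 16259 genes did (edgeR; 1 of the 10, Atf3, and 6.6% of all genes had an unadjusted p under 0.05). The median of the 10 was -0.14 there, against 0.01 over all genes.

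**Figure D1:**
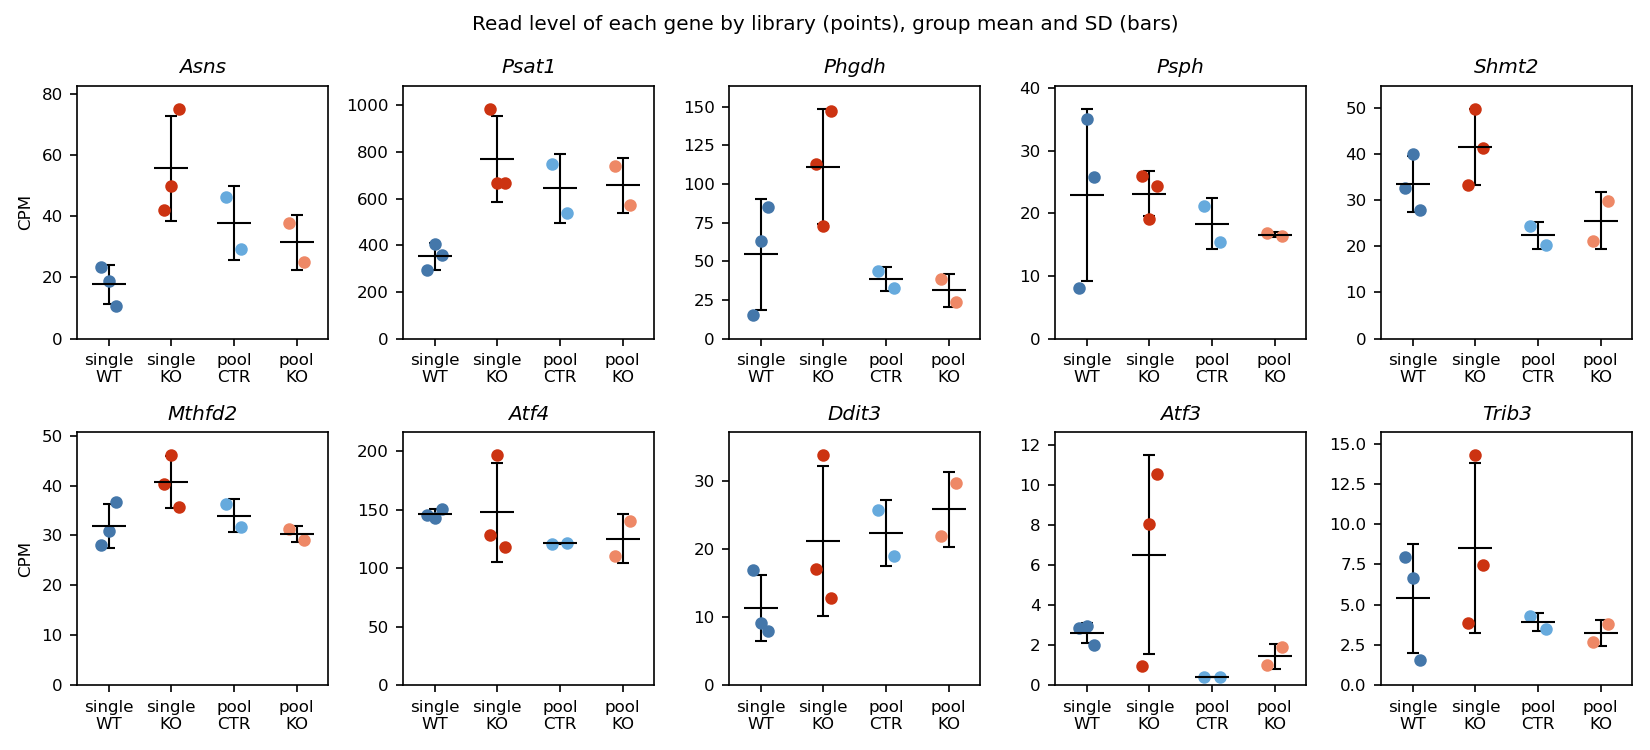
CPM of each gene on a linear axis that starts at 0. Points are libraries (WT, wild type; CTR, control; KO, knockout), the long bar is the group mean and the capped bar is 1 SD (n = 3 per single-embryo group, n = 2 per pool group). Asns and Psat1 in the wild-type single embryos lie below all other 7 libraries, while Atf4 overlaps in both sets.

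Of the 3 serine synthesis genes, Psat1 passed the test in single embryos; whether the 3 changes differ from each other was not tested. Psat1, the aminotransferase of the second step (chromosome 19, 15905123 to 15925059), had 293.0, 406.7 and 355.9 CPM in wild-type single embryos 1 to 3. It had 983.7, 664.8 and 665.0 CPM in knockouts 1, 3 and 4. The groups did not overlap, as 12.6% of all genes showed in that direction, and the lowest knockout stood well above the highest wild type. The log2 change was 1.19 (SE 0.23, 95% interval 0.69 to 1.70, edgeR adjusted p = 0.0227). In the pools, controls had 747.4 and 539.9 CPM and knockouts 739.4 and 572.0 CPM, so the groups overlapped almost entirely. The pooled log2 change was -0.06 (SE 0.22, 95% interval -0.55 to 0.44, edgeR adjusted p = 0.984).

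Phgdh, the dehydrogenase of the first step, had 15.2, 63.2 and 85.3 CPM in wild types 1 to 3 of the single embryos. Knockouts 1, 3 and 4 had 113.2, 72.9 and 147.4 CPM. Wild-type replicate 1 was far below the rest, and knockout replicate 3 lay between wild types 2 and 3. The log2 change of 1.08 (SE 0.51, 95% interval -0.05 to 2.21) did not pass (edgeR adjusted p = 0.241). With 1 library left out it ran from 0.63 (without wild-type replicate 1) to 1.59 (without wild-type replicate 3). In pools Phgdh had 43.8 and 33.0 CPM in controls and 38.5 and 23.7 CPM in knockouts, which overlap (log2 change -0.38, SE 0.27, edgeR adjusted p = 0.86). The counting of Phgdh is uncertain in that 16 other annotated genes, 13 of them pseudogenes, carry stretches of at least 75 bases that match its transcripts at 95% identity or more. Of these, 7 match over more than 1500 bases (Gm7901 at 98.7% over 1597 bases), and none of the 7 is in the count table. The 3 found in the count table match over 118 to 462 bases and reached at most 0.963 CPM in any library. The part of the 16 in the Phgdh counts was not tested.

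Psph, the phosphatase of the last step, showed no separation in either set. Wild-type single embryos 1 to 3 had 8.02, 35.0 and 25.9 CPM, and knockouts 1, 3 and 4 had 26.0, 19.1 and 24.5 CPM, within the wild-type range. The log2 change was 0.07 (SE 0.47, 95% interval -0.96 to 1.11), and in pools -0.23 (SE 0.23, 95% interval -0.74 to 0.28). Pools held 15.5 to 21.2 CPM. Psph overlaps the chaperonin gene Cct6a by 88 bases, and a Cct6a transcript matches Psph transcripts at 100% identity over 452 bases. Cct6a had 621.0 to 1095 CPM, so part of the Psph count may come from its neighbour, which was not tested. Of all 10 libraries, wild-type replicate 1 of the single embryos was the lowest for each of the 3 serine synthesis genes. The share of all genes with their lowest value in that library was not counted, so this has no background beside it.

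The mitochondrial one-carbon genes did not pass the test in either set. Shmt2, the serine hydroxymethyltransferase, had 32.6, 40.04 and 27.9 CPM in wild types 1 to 3 of the single embryos. Knockouts 1, 3 and 4 had 33.4, 49.8 and 41.3 CPM, and the log2 change was 0.35 (SE 0.27, 95% interval -0.24 to 0.93, edgeR adjusted p = 0.487). Mthfd2, the folate dehydrogenase and cyclohydrolase, had 28.1, 30.9 and 36.7 CPM against 40.3, 46.1 and 35.7 CPM, and its log2 change was 0.39 (SE 0.26, 95% interval -0.19 to 0.97, edgeR adjusted p = 0.419). For both genes the groups overlapped in single embryos. In pools the log2 changes were 0.09 (SE 0.21, 95% interval -0.38 to 0.57) for Shmt2 and -0.25 (SE 0.19, 95% interval -0.68 to 0.17) for Mthfd2. Shmt2 had 24.4 and 20.3 CPM in control pools and 21.2 and 29.9 CPM in knockout pools, which overlap. Mthfd2 had 36.4 and 31.6 CPM in control pools and 31.3 and 29.1 CPM in knockout pools, a narrow gap without overlap, as 11.1% of all genes showed in that direction.

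Asns, the asparagine synthetase (chromosome 6, 7675165 to 7693209), had the largest single-embryo change of the 10. Wild types 1 to 3 had 23.5, 18.9 and 10.6 CPM (348, 331 and 185 counts). Knockouts 1, 3 and 4 had 42.0, 49.8 and 75.0 CPM (757, 931 and 1355 counts). The groups did not overlap, as 12.6% of all genes showed in that direction. Wild-type replicate 3 and knockout replicate 4 were the extremes. Asns rose from 17.7 ± 6.50 to 55.6 ± 17.2 CPM (SD, n = 3). Its log2 change was 1.71 (SE 0.36, 95% interval 0.93 to 2.49, edgeR adjusted p = 0.0274). In pools the controls had 46.2 and 29.1 CPM and the knockouts 37.8 and 25.1 CPM. In both pool genotypes replicate 1 was the higher, and the genotypes overlapped (log2 change -0.34, SE 0.28, 95% interval -0.97 to 0.29, edgeR adjusted p = 0.872). The 3 wild-type single embryos were below all other 7 libraries for Asns and Psat1, 2 of the 10 genes, where 7.61% of all genes showed this. The part of the distance between wild-type single embryos and pools in these results was not tested.

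Both calls needed most of the 6 libraries. The call of Asns was lost without wild-type replicate 1 (edgeR adjusted p = 0.0732), 2 (0.0512) or 3 (0.104) and without knockout replicate 1 (0.0649) or 4 (0.123), and held without knockout replicate 3 (0.0236); its log2 change ran from 1.42 to 1.96. The call of Psat1 was lost without wild-type replicate 1 (0.104) or 3 (0.0866) and without knockout replicate 1 (0.0717) or 4 (0.0817), and held without wild-type replicate 2 (0.0335) or knockout replicate 3 (0.0147); its log2 change ran from 0.92 to 1.34. Across the 15 alternatives of each gene, the edgeR, DESeq2 or limma-voom adjusted p of Asns lay between 3.17e-05 and 0.123, and that of Psat1 between 6.66e-06 and 0.104.

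**Figure D2:**
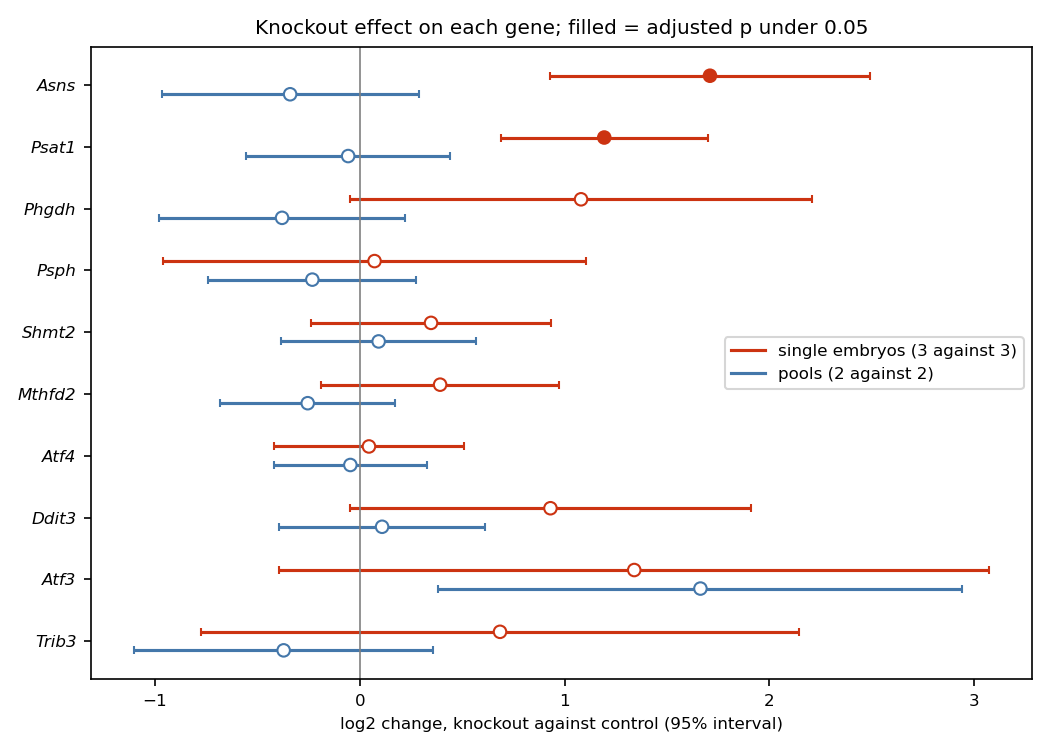
Log2 change of each gene, knockout against control, with its 95% interval, in single embryos (red) and pools (blue). Filled points passed an adjusted p of 5%: Asns (1.71) and Psat1 (1.19) in single embryos. Every pooled interval except that of Atf3 spans 0.

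Atf4, the transcription factor itself (chromosome 15, 80255184 to 80257545), was level. Wild-type single embryos had 145.2, 143.2 and 150.8 CPM, and knockouts 1, 3 and 4 had 128.7, 196.5 and 118.5 CPM. Knockout replicate 3 was above all wild types and the other 2 knockouts were below them, so the knockouts enclosed the wild types. The log2 change was 0.04 (SE 0.21, 95% interval -0.42 to 0.51, edgeR adjusted p = 0.929). In pools, controls had 121.0 and 121.6 CPM and knockouts 110.7 and 140.0 CPM (log2 change -0.05, SE 0.17, 95% interval -0.42 to 0.33). A 2-fold change of Atf4 messenger RNA lay outside both intervals.

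Ddit3 encodes CHOP, a factor tied to cell death under lasting stress. In single embryos it had 16.9, 9.13 and 7.88 CPM (wild types 1 to 3) and 17.0, 33.8 and 12.8 CPM (knockouts 1, 3 and 4). The groups overlapped, and knockout replicate 3 was the highest of all 10 libraries. The log2 change was 0.93 (SE 0.44, 95% interval -0.05 to 1.91, edgeR adjusted p = 0.245). With 1 library left out it ran from 0.51 (without knockout replicate 3) to 1.33 (without wild-type replicate 1). In pools it was 0.11 (SE 0.23, 95% interval -0.39 to 0.61), with 25.8 and 18.9 CPM in controls and 21.9 and 29.7 CPM in knockouts. Ddit3 overlaps its neighbours Mbd6 by 77 bases and Mars1 by 71.

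Atf3, a stress-induced factor that partners other leucine zipper proteins, was scarce. Wild-type single embryos had 2.83, 2.97 and 2.01 CPM (42, 52 and 35 counts), and knockouts 1, 3 and 4 had 0.944, 8.02 and 10.5 CPM (17, 150 and 190 counts). Knockout replicate 1 lay below all wild types and the other 2 far above them, so the log2 change of 1.34 had a wide error (SE 0.79, edgeR adjusted p = 0.346). With 1 library left out it ran from 0.75 (without knockout replicate 4) to 1.85 (without knockout replicate 1). In pools it was 0.420 and 0.421 CPM in controls (18 and 20 counts) against 1.003 and 1.88 CPM in knockouts (50 and 77 counts). The pool groups did not overlap, as 24.3% of all genes showed in that direction. The pooled log2 change of 1.66 (SE 0.58, 95% interval 0.38 to 2.94) did not pass (unadjusted p = 0.0158, edgeR adjusted p = 0.656).

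Trib3, a pseudokinase that restrains ATF4 and CHOP, was also scarce. Wild-type single embryos had 7.96, 6.67 and 1.55 CPM and knockouts 1, 3 and 4 had 3.89, 14.3 and 7.47 CPM. The groups overlapped in part: knockout replicate 3 was above all wild types and wild-type replicate 3 below all knockouts. The log2 change was 0.68 (SE 0.66, edgeR adjusted p = 0.594), and it ran from 0.18 (without knockout replicate 3) to 1.08 (without wild-type replicate 1) with 1 library left out; it was 0.26 without wild-type replicate 3. In pools it had 4.29 and 3.498 CPM against 2.65 and 3.80 CPM (log2 change -0.37, SE 0.33, edgeR adjusted p = 0.887).

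**Figure D3:**
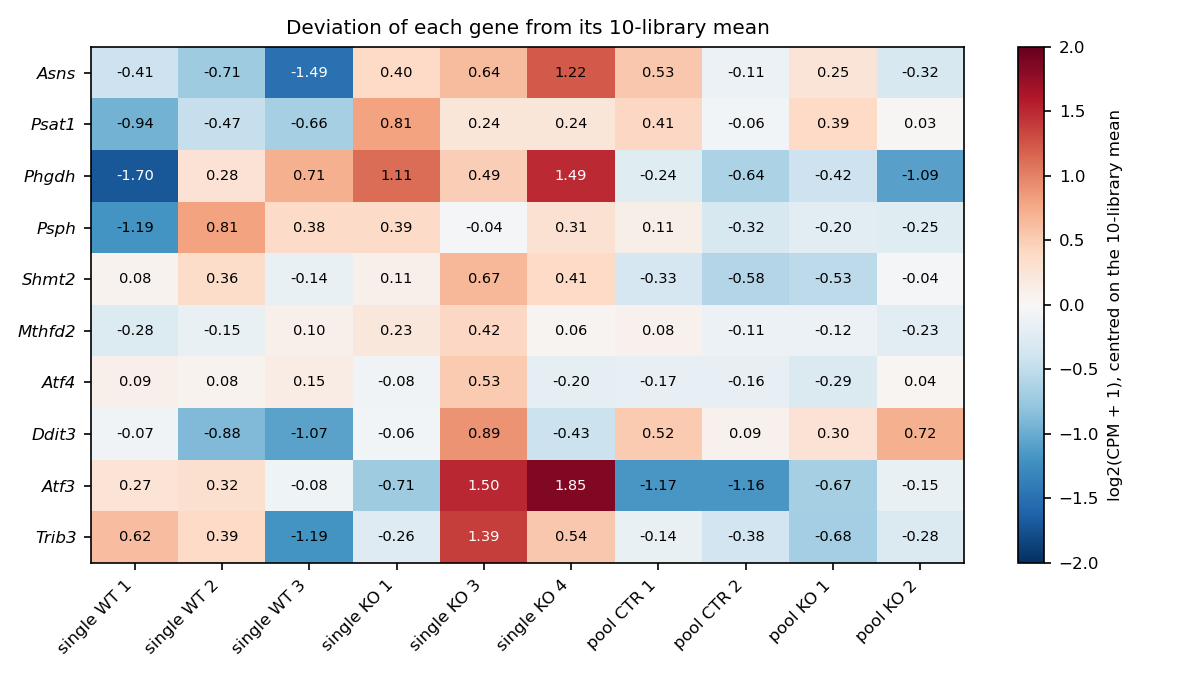
Log2(CPM + 1) of each gene in each library, centred on that gene's mean over the 10 libraries (WT, wild type; CTR, control; KO, knockout; numbers are replicates). Asns and Psat1 are negative in all 3 wild-type single embryos and positive in all 3 knockout ones, while Atf4, Ddit3, Atf3 and Trib3 are highest in knockout replicate 3 or 4.

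For 9 of the 10 genes the highest of all 10 libraries was a knockout single embryo: replicate 3 for Shmt2, Mthfd2, Atf4, Ddit3 and Trib3, replicate 4 for Asns, Phgdh and Atf3, and replicate 1 for Psat1. Psph was highest in wild-type replicate 2. The share of all genes with their highest value in a knockout single embryo was not counted, so the 9 of 10 has no background beside it. The library median of the centred values was 0.58 in knockout replicate 3, 0.36 in replicate 4 and 0.17 in replicate 1, against -0.17, 0.18 and -0.11 in wild types 1 to 3 and -0.25 to -0.03 in the pools. Wild-type replicate 2 was thus within the range of the knockout single embryos by this measure.

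Levels were compared between genes per kilobase of exon. The length was the union of all annotated exons of a gene, not that of the transcripts present, so places of close genes may depend on it. In wild-type single embryos Psat1 was the most abundant at 82.7 ± 13.4 CPM per kilobase (SD, n = 3), followed by Atf4 at 62.1 ± 1.67 and Phgdh at 22.0 ± 14.4. Then came Shmt2 (10.8 ± 1.97), Mthfd2 (9.14 ± 1.26), Ddit3 (6.59 ± 2.84), Asns (6.46 ± 2.38), Psph (5.31 ± 3.17), Trib3 (2.54 ± 1.59) and Atf3 (1.21 ± 0.240), and each of these overlapped its next neighbour within 1 SD. In knockout single embryos the order began with Psat1 at 181.3 ± 43.3 CPM per kilobase, Atf4 at 62.7 ± 18.0 and Phgdh at 44.7 ± 15.002, of which the last pair overlapped within 1 SD. Asns moved from place 7 to place 4 at 20.3 ± 6.30 CPM per kilobase, and Shmt2, Ddit3 and Mthfd2 followed at 13.4 ± 2.64, 12.4 ± 6.46 and 11.7 ± 1.48, each overlapping the one before. Psph (5.35 ± 0.835), Trib3 (4.02 ± 2.48) and Atf3 (3.01 ± 2.30) again came last, below Mthfd2 by more than their SDs. In the pools Asns held place 4 in controls (13.8 ± 4.41 CPM per kilobase, n = 2) and place 5 in knockouts (11.5 ± 3.27).

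Whether the knockout effect differed between single embryos and pools was tested in 1 fit of all 10 libraries. It was 2.08 for Asns (SE 0.53, 95% interval 0.92 to 3.23) and 1.27 for Psat1 (SE 0.36, 95% interval 0.48 to 2.05) on the log2 scale, single embryos minus pools. Neither passed after adjustment over 15878 genes (edgeR adjusted p = 0.235 for both; unadjusted 0.00193 and 0.0041). Of the 10 genes 0 passed, as did 0.0063% of all genes, and these 2 genes of the 10 had an unadjusted p under 0.05, against 14.6% of all genes. By DESeq2 both passed (adjusted p = 0.0113 for Asns and 0.0298 for Psat1). The difference was 1.47 (SE 0.78) for Phgdh, 0.85 (SE 0.59) for Ddit3 and 0.11 (SE 0.29) for Atf4. The sets also differ in embryo number, depth and known sex, which cannot be told apart from this difference.

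The surrounding pathway was read from 6 lists of 124 genes, all in the table. Among 14 genes of eIF2 kinases, eIF2B and eIF2 phosphatases, 4 lay higher and 3 lower in single embryos with an unadjusted edgeR p below 0.05, which 22.6% of all genes had. After adjustment 1.16% of all genes rose and 3.21% fell, and of these 14 genes 1 rose and 0 fell (median 0.11). That gene was Eif2b1, a subunit of the exchange factor eIF2B, at 171.2 ± 34.5 CPM in wild types against 340.3 ± 58.0 CPM in knockouts (SD, n = 3, log2 change 1.05, SE 0.23, edgeR adjusted p = 0.0334). For Eif2b1 the wild-type single embryos lay below all other 7 libraries, as 7.61% of all genes did, and control pools had 381.2 ± 75.7 CPM (SD, n = 2). The 4 kinase genes, named here after their values were seen, did not pass: Eif2ak1 (HRI) at 0.08 (SE 0.29), Eif2ak2 (PKR) at -2.18 (SE 1.25), Eif2ak3 (PERK) at -1.25 (SE 0.34) and Eif2ak4 (GCN2) at -0.87 (SE 0.47).

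Of 31 other genes known as ATF4 targets, 21 were tested in single embryos: 0 rose and 3 fell, all amino acid transporter genes (median -0.03). Over all genes, 1.16% rose and 3.21% fell. With an unadjusted edgeR p below 0.05, 2 of the 21 lay higher and 5 lower, and 22.6% of all genes had such a p. Slc1a5, a glutamine carrier, fell from 45.9 ± 5.23 to 11.6 ± 6.39 CPM (log2 change -1.97, SE 0.37). Slc38a2, a neutral amino acid carrier, fell from 23.0 ± 1.27 to 5.92 ± 2.92 CPM (-1.93, SE 0.43). Slc3a2, the shared heavy chain of several amino acid exchangers, fell from 328.5 ± 43.9 to 152.2 ± 26.1 CPM (-1.05, SE 0.21). The 3 had edgeR adjusted p from 0.0211 to 0.034. For each of them the wild-type single embryos lay above all other 7 libraries, as for 5 of the 21 tested genes of the list and 11.5% of all genes. Control pools had 9.29 ± 2.16 CPM of Slc1a5, 8.94 ± 2.95 of Slc38a2 and 171.7 ± 21.0 of Slc3a2 (SD, n = 2). Divided by name after the values were seen, the 5 tested targets with an Slc symbol had a median of -1.31 and the other 16 a median of 0.13. All 243 tested genes with an Slc symbol had a median of -0.71, and 16.5% of them fell, against 2.97% of the other 13587 genes. Among known ATF4 targets Asns and Psat1 rose while these transporter genes fell in the same embryos.

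Of 25 other folate and one-carbon genes, 23 were tested: 2 rose in single embryos and 0 fell (median 0.10), where 1.16% of all genes rose and 3.21% fell. With an unadjusted edgeR p below 0.05, 4 lay higher and 1 lower, and 22.6% of all genes had such a p. Tyms, which makes thymidylate from a folate-borne carbon, rose from 247.7 ± 41.1 to 501.5 ± 85.0 CPM (log2 change 1.08, SE 0.22, edgeR adjusted p = 0.025). Gcsh, a carrier protein of the glycine cleavage system, rose from 392.1 ± 44.1 to 853.8 ± 363.4 CPM (1.20, SE 0.30, edgeR adjusted p = 0.0457). For both genes the wild-type single embryos lay below all other 7 libraries, as for 3 of the 23 tested genes and 7.61% of all genes. Control pools had 528.9 ± 75.8 CPM of Tyms and 1012 ± 205.7 CPM of Gcsh (SD, n = 2). Among 20 cytosolic aminoacyl-tRNA synthetase genes the median was 0.34 and 0 passed by edgeR, while 8 lay higher and 3 lower with an unadjusted p below 0.05 (22.6% of all genes had one), with Dars at 1.02 (SE 0.28, edgeR adjusted p = 0.0632). Among 16 aspartate, glutamate and proline genes the median was 0.28 and 0 passed by edgeR, while 1 lay higher and 1 lower with an unadjusted p below 0.05, against the same 22.6% of all genes.

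Genes of the endoplasmic reticulum arm of the unfolded protein response moved the other way. Of 18, 9 fell in single embryos and 0 rose (median -0.997), where 3.21% of all genes fell and 1.16% rose. With an unadjusted edgeR p below 0.05, 14 lay lower and 0 higher, and 22.6% of all genes had such a p. Calr, a calcium-binding chaperone, fell from 2691 ± 411.7 to 1080 ± 134.1 CPM (log2 change -1.27, SE 0.17), Hspa5, the chaperone BiP, from 2973 ± 321.4 to 1303 ± 56.1 CPM (-1.14, SE 0.15), and Pdia4, a disulfide isomerase, from 464.8 ± 41.5 to 177.3 ± 22.6 CPM (-1.34, SE 0.19), each with an edgeR adjusted p of 0.012. For 15 of the 18 the wild-type single embryos lay above all other 7 libraries, where 11.5% of all genes did so.

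In the pools 0 genes of the 6 lists passed by edgeR, and the list medians were -0.25 to -0.02. Unadjusted edgeR p was below 0.05 there for 3 higher and 1 lower of the 27 other ATF4 targets tested. It was so for 1 higher of 16 aspartate, glutamate and proline genes and 2 lower of 18 endoplasmic reticulum genes. Of all genes tested in the pools, 6.6% had such a p. Genes with the smallest p of their list there were Eif2b4 (-0.36, SE 0.17), the cystine transporter gene Slc7a11 (-3.15, SE 1.08, under 1 CPM in every pool), Nars (-0.28, SE 0.17), Mtrr (-0.37, SE 0.17) and Xbp1 (-0.70, SE 0.20), with edgeR adjusted p of 0.557 to 0.834. Of Eif2b1, Tyms, Gcsh, Slc1a5, Slc38a2, Slc3a2, Calr, Hspa5 and Pdia4, which passed in single embryos, the pooled log2 changes were -0.33 to 0.56, and the difference between the sets passed for none of them (edgeR adjusted p = 0.235 to 0.274).

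**Figure D4:**
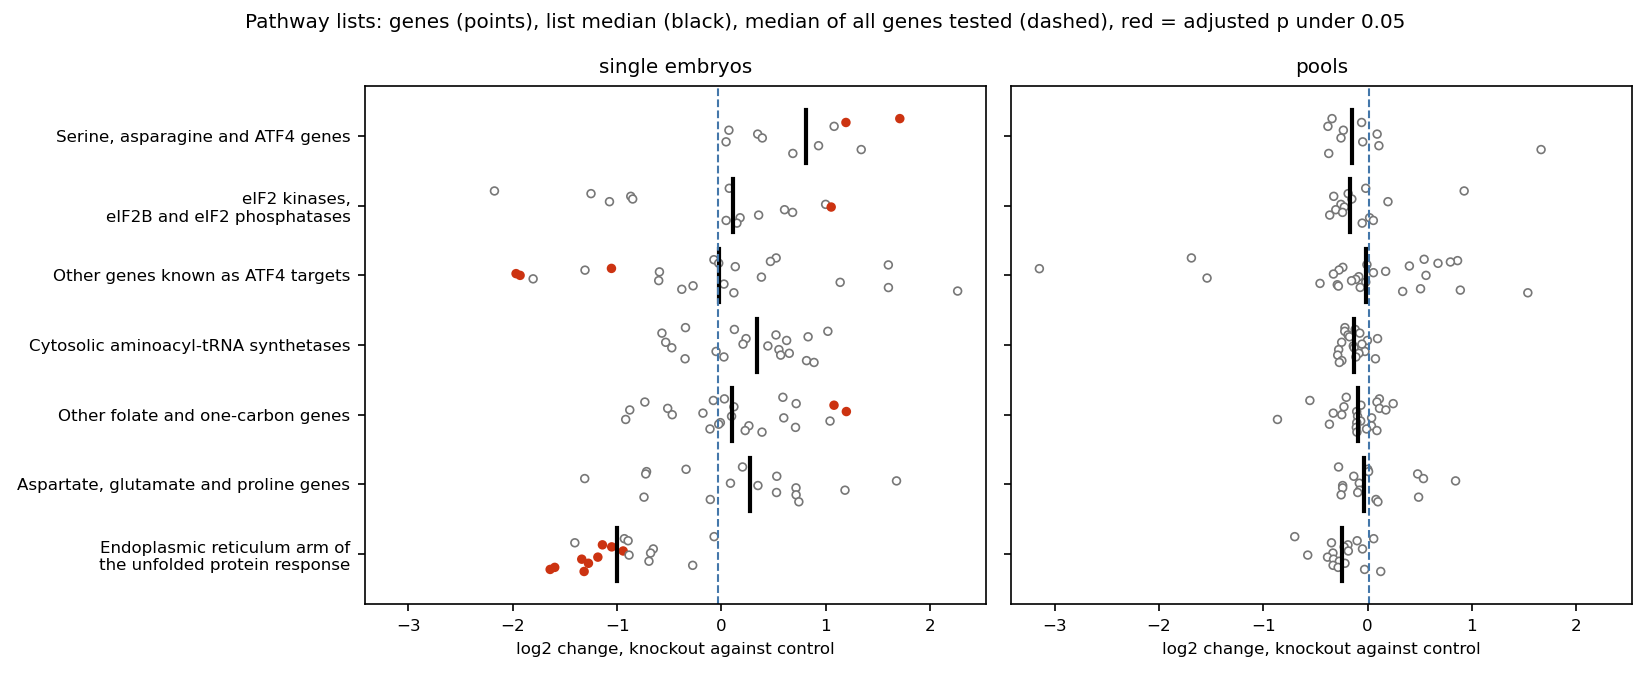
Log2 change, knockout against control, of every tested gene (points) in the 10 genes described and in 6 pathway lists, in single embryos and pools. The black bar is the list median, the dashed line the median of all genes tested, and red points passed an adjusted p of 5%; in single embryos the 10 genes have a median of 0.81 and the endoplasmic reticulum list one of -0.997.

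The genes most like Asns and Psat1 across the 10 libraries were sought by the root mean square difference of centred log2(CPM + 1) among 7672 genes of at least 10 CPM. Nearest to Asns were Rnf146 (0.32), Endog (0.36), Dscr3 (0.36), Nme7 (0.37) and Hmox2 (0.37), where the median gene stood at 0.83. Nearest to Psat1 were Csnk2b (0.13), Gpn3 (0.14), Drg2 (0.14), Pdzd11 (0.15) and Surf2 (0.16), where the median gene stood at 0.65. Atf3 and Trib3, with a mean under 10 CPM, were not ranked, and none of the ranked others of the 10 genes was among the 5 nearest to either. Psat1 stood at place 128 from Asns, and at the same distance (0.50) Asns stood at place 2212 from Psat1. The SD of the centred values was 0.74 for Asns and 0.51 for Psat1, so places from the 2 genes are not on one scale. Phgdh, the gene of the enzyme before PSAT1 in the pathway, stood at place 5714 from Psat1. Libraries share their depth and genotype in these distances, which are given as a description.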

How the data were processed

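Polyadenylated RNA was read as single ends of 75 bases from SMART-Seq v4 cDNA and Nextera XT libraries, per the labels' protocols. Each value of the deposited table is a whole-number count of reads for 1 gene in 1 library, not normalized. The submitters' processing notes name the build mm10 and the tools RSEM 1.3.1, STAR 2.7.6a and fastp 0.21.0. No source used here gives the annotation, strand setting or treatment of reads with several matches, and reads of overlapping genes cannot be told apart. Reads carry no molecular identifiers.

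Counts were tested with edgeR 4.0.16 in R 4.3.3 (filterByExpr, TMM factors 0.902 to 1.11, quasi-likelihood F test, Benjamini-Hochberg adjustment over all genes at 5%, two-sided), each set by itself and the difference between sets over all 10 libraries. The code was tested on simulated counts, where the difference between sets recovered fewer of the changed genes than either set by itself. Standard errors come from the change and its F value. CPM used library totals. Exon lengths are from GENCODE M21, near copies from its transcripts by BLAST 2.17.0, and promoters and coordinates from RefSeq GRCm38.p6, the assembly of mm10. Alternatives were other scalings, filters, DESeq2 1.42.0, limma-voom 3.58.1, a replicate block, one fit of all libraries, and leaving out each library.

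The 10 genes and the lists were chosen with earlier results of these data known. Setting the wild-type single embryos against the other 7 libraries, dividing genes by an Slc symbol, and naming the 4 eIF2 kinase genes, outside the rule below, were added after values were seen. Named genes are the 10, up to 3 called genes with the smallest p per list and set (the smallest p where none was called), the 5 nearest to Asns and to Psat1, leaving out predicted genes and pseudogenes, and Jarid2; for 1 list the named genes are not reported here. Whether pools came from separate litters is not in the labels; p-values then measure only the spread between these libraries, which may be technical. Replicate libraries differed beyond sampling noise, with a chi-square of 49.4 to 88.4 per gene. The 27 gene names that a spreadsheet turned into dates stayed in the fits.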

Additional observations from a re-analysis of the deposited data

How the results depend on the processing

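Of 454 alternative values of the 10 genes over the 3 comparisons, 415 kept direction and side of the threshold. The cause of the changes below was not tested. In single embryos 2 of the 10 genes were called under other scalings, DESeq2, limma-voom, the 10 CPM filter and one fit of all libraries, and 3 without a filter (Phgdh added, edgeR adjusted p = 0.00177); with 1 library left out the number ran from 0 to 2. All genes called there numbered 605, against 1715 without a filter, 1243 at 10 CPM, 1957 by DESeq2, 1667 in one fit of all libraries, and 1 (without wild-type replicate 3 or knockout replicate 4) to 1316 (without knockout replicate 3) with 1 library left out. In pools 0 genes were called, against 170 without a filter, 71 by DESeq2, 1 by limma-voom and 25 to 379 with 1 library left out, fits in which the lone library is assumed to vary like the others; 0 of the 10 genes were called in any. For the difference between sets 1 gene was called, against 548 without a filter and 544 by DESeq2, and 0 to 2 with 1 library left out; of the 10, 3 were called without a filter (Asns 2.13, Psat1 1.31, Phgdh 1.52) and 2 by DESeq2.

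With the replicate number as a block, 187 genes were called in single embryos, 39 in pools and 0 for the difference, and 0 of the 10 in each (Asns 1.55, edgeR adjusted p = 0.119; Psat1 1.34, edgeR adjusted p = 0.0693). Numbers are shared by 2 pairs in each set and no label says what they mark. Deviations of same-numbered libraries from their group mean correlated over 8009 genes at -0.05 and -0.17 in single embryos and 0.57 in pools. With 2 libraries per pool group the deviations are equal and opposite, so the 2 pool pairs must give the same value and count as 1.

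Changes of sign were of values that did not pass. In pools, Psat1 was 0.027 and Atf4 0.048 with library totals, 0.0012 and 0.015 at 10 CPM, and Atf4 0.00081 with upper quartile scaling; for the difference, Atf4 was -0.033 with library totals. With 1 library left out, values ran in single embryos from -0.34 to 0.48 (Psph) and -0.14 to 0.17 (Atf4); in pools from -0.75 to 0.062 (Asns), -0.33 to 0.23 (Psat1), -0.47 to 0.044 (Psph), -0.10 to 0.26 (Shmt2), -0.15 to 0.051 (Atf4) and -0.13 to 0.38 (Ddit3); and for the difference from -0.084 to 0.75 (Psph), -0.083 to 0.26 (Atf4) and -0.86 to 0.22 (Atf3). Library totals moved the median of all genes from 0.01 to 0.10 in pools and from -0.05 to -0.21 for the difference. Depth limits Atf3 and Trib3 most, with 17 to 267 counts per library.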
